A study of Mus musculus with 13 samples.

Results

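Genes of the presynaptic release machinery, 10 of the 55291 gene symbols counted, were followed in the CA1 region of mouse entorhino-hippocampal tissue cultures. They were taken by symbol: Syn1, Syn2, Syp, Sv2a, Sv2b, Syt1, Vamp2, Snap25, Stx1a and Slc17a7. All cultures came from wildtype C57BL/6 mice, were prepared at postnatal day 4 to 5 and had grown for at least 18 days in vitro. Each of the 13 RNA sequencing libraries held a single CA1 region from a single culture. In 5 control cultures no pathway was cut. In 4 cultures the Schaffer collaterals, the axons from CA3 to CA1, had been cut 3 days earlier (Schaffer collateral lesion, SCL). In the other 4 the perforant path from the entorhinal cortex had been cut 3 days earlier (entorhinal cortex lesion, ECL). The comparisons ask how the release machinery of CA1 stands after each loss of input, and whether both losses differ.

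Neurotransmitter is packed into synaptic vesicles by transporters in the vesicle membrane. Vesicles fuse when a vesicle SNARE protein zippers up with SNARE proteins of the plasma membrane, and a calcium sensor on the vesicle couples this step to the action potential. Synapsins tether the vesicles into a reserve near the active zone. The transcripts of these proteins are made mostly in neuronal cell bodies, and the cell bodies of both severed projections lie outside CA1.

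After SCL, 0 of the 10 genes passed the edgeR quasi-likelihood test at an adjusted p of 0.05, 2 had an unadjusted p under 0.05, and DESeq2 called 1. Across all 11438 genes tested, 24.9% were called after SCL, 13.1% higher and 11.8% lower. After ECL, 2 of the 10 passed, Syn1 higher by 1.82-fold and Syp lower at 0.615 of the control level, against 27.8% of the 11212 genes tested (15.2% higher, 12.5% lower). In the direct comparison of ECL with SCL, edgeR called 0 of the 10, 1 had an unadjusted p under 0.05 and DESeq2 called 0. Over all 12232 genes edgeR called 0.0%, with 897 at an unadjusted p under 0.05, and DESeq2 called 71. By the headings of the files, SCL held 1 male and 3 females and ECL 3 males and 1 female, so sex was unequal in this direct comparison. Both lesions were set against the same 5 controls. The median log2 fold change of the 10 genes was 0.07 after SCL and 0.11 after ECL, beside 0.01 and -0.01 over all genes tested. None of the 10 had groups that did not overlap, after SCL (23.6% of all genes tested) or after ECL (25.0%).

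The bases in front of 3 of these genes are shown because Syn1 and Syp carry the calls and Stx1a the largest fold. They are the RefSeq promoter windows on GRCm38.p6, read 5′ to 3′ along the gene's own strand and ended at the first base of the GENCODE gene. Capitals mark a full cyclic AMP response element (CRE, TGACGTCA), a short CRE (TGACG) or an SP1 box (GGGCGG).
Syn1, chrX:20921005-20921168, minus strand: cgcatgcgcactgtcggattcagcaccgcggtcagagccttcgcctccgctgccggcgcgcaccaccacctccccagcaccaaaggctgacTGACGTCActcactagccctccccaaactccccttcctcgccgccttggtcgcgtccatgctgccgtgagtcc
Syp, chrX:7638330-7638470, plus strand: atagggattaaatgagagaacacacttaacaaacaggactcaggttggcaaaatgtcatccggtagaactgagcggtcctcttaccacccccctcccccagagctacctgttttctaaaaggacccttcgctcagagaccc
Stx1a, chr5:135023232-135023481, plus strand: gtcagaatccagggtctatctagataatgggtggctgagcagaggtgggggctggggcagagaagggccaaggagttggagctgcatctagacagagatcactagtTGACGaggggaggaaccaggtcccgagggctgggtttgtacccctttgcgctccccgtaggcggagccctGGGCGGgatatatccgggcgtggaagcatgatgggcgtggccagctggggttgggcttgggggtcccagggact
The Syn1 stretch held 1 full CRE, which overlaps 2 short CREs read on opposite strands, and no SP1 box. The stretch of Syp held none of the motifs searched, but its full window, which runs on into the gene, held 2 SP1 boxes. The stretch of Stx1a held 1 short CRE and 1 SP1 box, and its full window 3 SP1 boxes. The shares that follow are of full windows, which are longer than the stretches shown. Over 32851 mouse promoter windows of 300 bases, 1.79% held a full CRE, 20.8% a short CRE and 35.7% an SP1 box on either strand. Windows were found for 8 of the 10 genes, and among these only that of Syn1 held a full CRE, and only Syn1 had no window with an SP1 box. The G form of the EGR site, GCGGGGGCG, was found in the windows of Syn2 only (2.91% of all windows), the T form, GCGTGGGCG, in none (0.612%), and the E-box CACGTG (7.15%) and the TATA box TATAAA (13.6%) in those of Sv2b only. These matches describe letters in a window and were not tested against expression.

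Library totals ran from 14371152 to 21092612 counts in controls and from 16405517 to 56786613 after the lesions, so a gene was read more deeply in most lesioned cultures than in controls. Mitochondrial transcripts took 6.07% to 7.96% of the counts in controls and 3.42% to 5.38% after the lesions. The 14 general neuron markers summed to 2911 to 3290 CPM (normalized counts scaled to the library size) in controls, 2479 to 2723 after SCL and 2367 to 2733 after ECL, and 7 of 14 were called lower after each lesion, with none higher. Of 14 microglia markers, 14 were called higher after SCL and 10 after ECL, and their sum rose from 1138 to 1393 CPM to 2150 to 4089 after SCL and to 2187 to 3156 after ECL. In such bulk samples fewer neurons and less RNA per neuron cannot be told apart. Titles and study name CA1 as the tissue, but the deposited extraction text names the dentate gyrus. The 7 CA1 markers summed to 402.0 to 579.8 CPM in controls, 465.3 to 638.0 after SCL and 457.2 to 619.9 after ECL, with Fibcd1 at 50.6 to 103.3, Mpped1 at 84.0 to 190.3, Spink8 at 51.9 to 197.7 and Wfs1 at 6.99 to 24.8 CPM over the 13 libraries. Of the 6 granule cell markers, C1ql2 (0.0 to 1.69 CPM), Dsp (0.0 to 1.53) and Tdo2 (0.963 to 4.18) were at or near 0, while Prox1 (10.6 to 19.9), Pdzd2 (12.4 to 23.6) and Calb1 (47.1 to 159.0), which CA1 neurons also express, were detected in every library. The 6 summed to 110.2 to 178.5 CPM in controls, 78.4 to 147.2 after SCL and 82.9 to 190.0 after ECL. The part of these shifts in the results that follow was not tested, except where a fit scaled to the neuron markers is given.

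**Figure D1:**
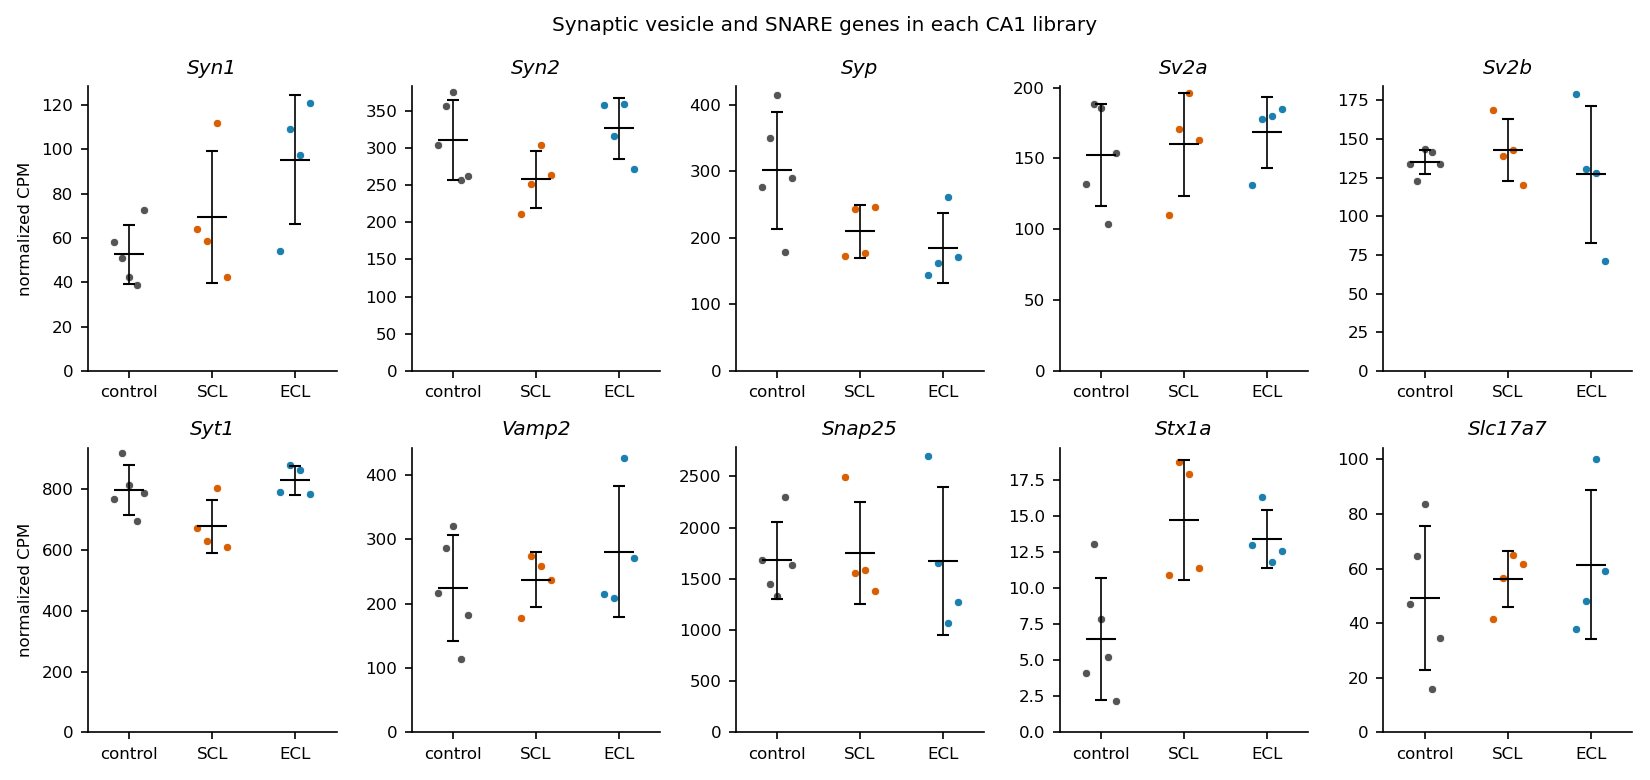
Normalized CPM of each of the 10 genes in every library (points), with mean and SD (bars), for control (n = 5), SCL (n = 4) and ECL (n = 4); every y axis starts at 0. Syn1 in ECL replicates 2 to 4 lies above all controls, Syp in ECL replicates 1, 2 and 4 below all controls, Syt1 in SCL replicates 1, 2 and 4 below all controls, and in Stx1a a single control of 13.1 CPM reaches into the lesioned range.

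Per kilobase of exon, Snap25 was the most abundant of the 10 in controls at 247.2 ± 54.98 CPM per kb (SD, n = 5), and Stx1a the least at 2.43 ± 1.58. Both are plasma membrane SNAREs, partners in the same fusion complex. Between them, in falling order, stood Syt1 (95.6 ± 9.90 CPM per kb), Vamp2 (59.0 ± 21.7), Syp (57.9 ± 16.8), Syn2 (44.2 ± 7.64), Sv2a (32.9 ± 7.75), Sv2b (16.1 ± 0.956), Syn1 (16.0 ± 4.07) and Slc17a7 (9.12 ± 4.86). Only at 2 steps did neighbours in this order not overlap over the controls: Snap25 lay apart from Syt1, and Sv2a from Sv2b. The ranges of the other neighbours overlapped, which does not show that they were level within single libraries. Summed over the 10 genes, the level was 3553 to 3847 CPM in controls (median 3726), 3139 to 4119 after SCL (median 3534) and 3221 to 4619 after ECL (median 3598), so the ranges after both lesions enclosed that of the controls.

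Syn1 encodes synapsin I, a phosphoprotein that tethers vesicles in the reserve pool, and lies on chromosome X (GRCm38 chrX:20860511-20921004, minus strand, 13 exon blocks). It was counted at 58.4, 50.9, 42.5, 38.9 and 72.5 CPM in control replicates 1 to 5. After ECL its level was 54.1, 109.0, 97.3 and 120.7 CPM in replicates 1 to 4. Replicates 2 to 4 stood above every control and replicate 1 within the control range. The fitted log2 fold change after ECL was 0.86 (SE 0.23, 95% interval 0.37 to 1.36, edgeR adjusted p = 0.0136). After SCL the values were 64.2, 58.9, 111.8 and 42.4 CPM, of which only replicate 3 exceeded the controls. The log2 fold change was 0.40 (95% interval -0.15 to 0.95, edgeR adjusted p = 0.267), so neither no change nor a near doubling lay outside the interval.

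The rise of Syn1 after ECL depended on several choices. Without ECL replicate 4 the log2 fold change was 0.73 and the edgeR adjusted p 0.0534. By the headings of the files, ECL replicate 1 was the only female of that group, while controls held 2 males and 3 females. With sex as a term the change was 0.67 (edgeR adjusted p = 0.063), and with an offset for length and GC 0.63 (edgeR adjusted p = 0.0639). Timp1, an inhibitor of matrix metalloproteinases, lies within Syn1 on the opposite strand, and the counting ignored strand. Timp1 rose after ECL by 1.83 on the log2 scale (edgeR adjusted p = 0.00144) and after SCL by 2.09 (adjusted p = 0.00213), but both genes share 0 exon bases in the annotation.

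Syn2, the second synapsin (chr6:115134902-115282006, plus strand), did not pass the test after either lesion. Its level was 304.5, 356.2, 375.0, 256.2 and 262.5 CPM in controls, 210.5, 252.0, 304.3 and 263.7 CPM after SCL and 357.5, 315.7, 359.2 and 271.9 CPM after ECL. SCL replicate 1 lay below the lowest control and replicate 2 just below it, and all ECL libraries lay within the control range. The log2 fold change was -0.27 after SCL (95% interval -0.62 to 0.07, edgeR adjusted p = 0.228) and 0.08 after ECL (95% interval -0.26 to 0.41, adjusted p = 0.752). Of the 10 genes, Syn2 had the only unadjusted p under 0.05 between the lesions (ECL minus SCL 0.35, 95% interval 0.02 to 0.68), and it did not pass over all genes (edgeR adjusted p = 0.667). Timp4 lies within Syn2 on the opposite strand and shares 90 exon bases with it. Its own log2 fold change was 0.17 after SCL and 0.34 after ECL, neither called (edgeR adjusted p = 0.503 and 0.218).

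Syp encodes synaptophysin, the most widely used protein marker of synaptic vesicles, and is also X-linked (chrX:7638471-7653256, plus strand, 8 exon blocks). Controls held 276.0, 349.3, 414.0, 178.7 and 289.9 CPM. After ECL the level was 143.8, 162.0, 261.6 and 170.7 CPM, so that 3 of 4 libraries lay below every control. The log2 fold change was -0.70 (SE 0.23, 95% interval -1.20 to -0.21, edgeR adjusted p = 0.0358). After SCL, Syp stood at 172.7, 243.1, 177.4 and 245.7 CPM, with replicates 1 and 3 just below the lowest control. The fitted change was -0.53 (95% interval -1.01 to -0.05, edgeR adjusted p = 0.0943). It passed with the offset for length and GC content (-0.56, edgeR adjusted p = 0.0454).

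The fall of Syp after ECL was the less stable of both calls. It stayed past the threshold in 10 of 24 alternatives, with log2 fold changes from -0.92 to -0.32, while Syn1 did so in 20 of 24. Leaving out control replicate 1, 2, 3 or 5 gave edgeR adjusted p-values of 0.0504, 0.0665, 0.0785 and 0.0606, and leaving out ECL replicate 1, 2 or 4 gave 0.117, 0.098 and 0.0925. Without control replicate 4, the lowest of the controls, the change was -0.85 (edgeR adjusted p = 0.00745). Scaled to the general neuron markers, Syp changed by -0.32 (edgeR adjusted p = 0.224) after ECL and by -0.10 (adjusted p = 0.718) after SCL. Of the exon bases of Syp, 16.8% also belong to the antisense gene Gm14703, which held at most 4 counts in any library, and without strand the reads of both cannot be told apart there.

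Sv2a and Sv2b encode glycoproteins of the vesicle membrane, and SV2A is the binding site of the antiepileptic drug levetiracetam. Sv2a (chr3:96181151-96195521, plus strand) was counted at 132.2, 188.1, 185.3, 103.4 and 154.1 CPM in controls, 109.8, 171.1, 196.5 and 162.7 CPM after SCL and 131.2, 178.0, 180.1 and 185.1 CPM after ECL. Sv2b (chr7:75114894-75309262, minus strand) was counted at 134.0, 123.1, 143.3, 141.6 and 133.6 CPM in controls, 168.6, 138.7, 142.9 and 120.2 CPM after SCL and 178.8, 130.8, 127.9 and 70.8 CPM after ECL. Controls were the tightest of all for Sv2b, with a coefficient of variation of 5.93%, whereas the 4 ECL cultures varied by 34.8%, with replicate 1 above and replicate 4 below every control. The log2 fold changes of Sv2a were 0.06 after SCL (95% interval -0.37 to 0.50) and 0.15 after ECL (-0.24 to 0.54), and those of Sv2b 0.08 (-0.19 to 0.35) and -0.08 (-0.51 to 0.35). None of these 4 passed (edgeR adjusted p between 0.571 and 0.844).

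Syt1 encodes synaptotagmin-1, the calcium sensor of fast release (chr10:108497650-109010982, minus strand). It varied little: 766.5, 920.9, 815.6, 694.4 and 786.8 CPM in controls and 791.5, 879.5, 862.7 and 785.9 CPM after ECL. After SCL the level was 672.0, 628.9, 803.6 and 611.0 CPM, and replicates 1, 2 and 4 lay below every control. The log2 fold change after SCL was -0.23 (95% interval -0.54 to 0.08, edgeR adjusted p = 0.249) and after ECL 0.07 (-0.22 to 0.35, adjusted p = 0.75). Between the lesions it was 0.30 higher after ECL, with an interval of -0.01 to 0.61 (edgeR adjusted p = 0.702).

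Vamp2 (synaptobrevin-2, chr11:69088490-69092384, plus strand) is the vesicle SNARE, and Snap25 (chr2:136713453-136782428, plus strand) and Stx1a (syntaxin-1A, chr5:135023482-135051100, plus strand) are its partners in the plasma membrane. Vamp2 lay at 217.0, 286.8, 321.7, 114.2 and 183.3 CPM in controls, 177.5, 275.1, 259.5 and 236.4 CPM after SCL and 215.3, 208.7, 427.4 and 271.9 CPM after ECL. Snap25 lay at 1681, 1446, 1337, 2299 and 1634 CPM in controls, 2491, 1559, 1586 and 1383 CPM after SCL and 2695, 1656, 1064 and 1272 CPM after ECL. Where Vamp2 was lowest among controls (replicate 4) Snap25 was highest, and where Vamp2 was highest of all (ECL replicate 3) Snap25 was lowest. Log2 fold changes of Vamp2 were 0.07 after SCL (95% interval -0.48 to 0.62) and 0.33 after ECL (-0.26 to 0.92). For Snap25 they were 0.07 (-0.38 to 0.51) and 0.00 (-0.53 to 0.53). None passed (edgeR adjusted p between 0.399 and 0.994).

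Stx1a had the largest fitted change of the 10 genes after each lesion and did not pass after either. It was counted at 4.13, 13.1, 7.84, 5.24 and 2.15 CPM in controls, 10.9, 18.7, 17.9 and 11.4 CPM after SCL and 12.96, 16.3, 11.8 and 12.6 CPM after ECL. All 8 lesioned cultures lay above 4 of the 5 controls, and control replicate 2 lay within the lesioned range. The log2 fold change was 1.18 after SCL (95% interval 0.29 to 2.07, edgeR adjusted p = 0.052) and 1.05 after ECL (0.22 to 1.88, adjusted p = 0.0565). Without control replicate 2 it passed, at 1.60 after SCL (edgeR adjusted p = 0.0105) and 1.48 after ECL (adjusted p = 0.00662). DESeq2 also called it, with adjusted p-values of 0.0106 and 0.0172. After each lesion it passed in 9 of 23 alternatives and not in the others. Log2 fold changes went down to 0.95 after SCL and 0.83 after ECL, and adjusted p-values up to 0.129 and 0.135. With the offset for length and GC content it did not pass after SCL. Counts behind it were few, from 32 to 1090 per library, with a mean of 113.2 in controls, 561.5 after SCL and 371.0 after ECL. It therefore cleared the minimum mean of 150 through the lesioned libraries, and it fell below that minimum when counts were divided by 2.

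Slc17a7 encodes VGLUT1, which loads glutamate into the vesicles of cortical and hippocampal excitatory neurons (chr7:45163949-45176142, plus strand). Its level was 47.1, 64.5, 83.8, 15.9 and 34.7 CPM in controls, 41.7, 56.7, 65.0 and 61.7 CPM after SCL and 37.8, 48.2, 100.1 and 59.3 CPM after ECL. The extremes fell in control replicate 4 and ECL replicate 3, as for Vamp2. Log2 fold changes were 0.18 after SCL (95% interval -0.58 to 0.95, edgeR adjusted p = 0.735) and 0.32 after ECL (-0.49 to 1.13, adjusted p = 0.557), and such wide intervals leave changes of up to 2.19-fold within reach after ECL.

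**Figure D2:**
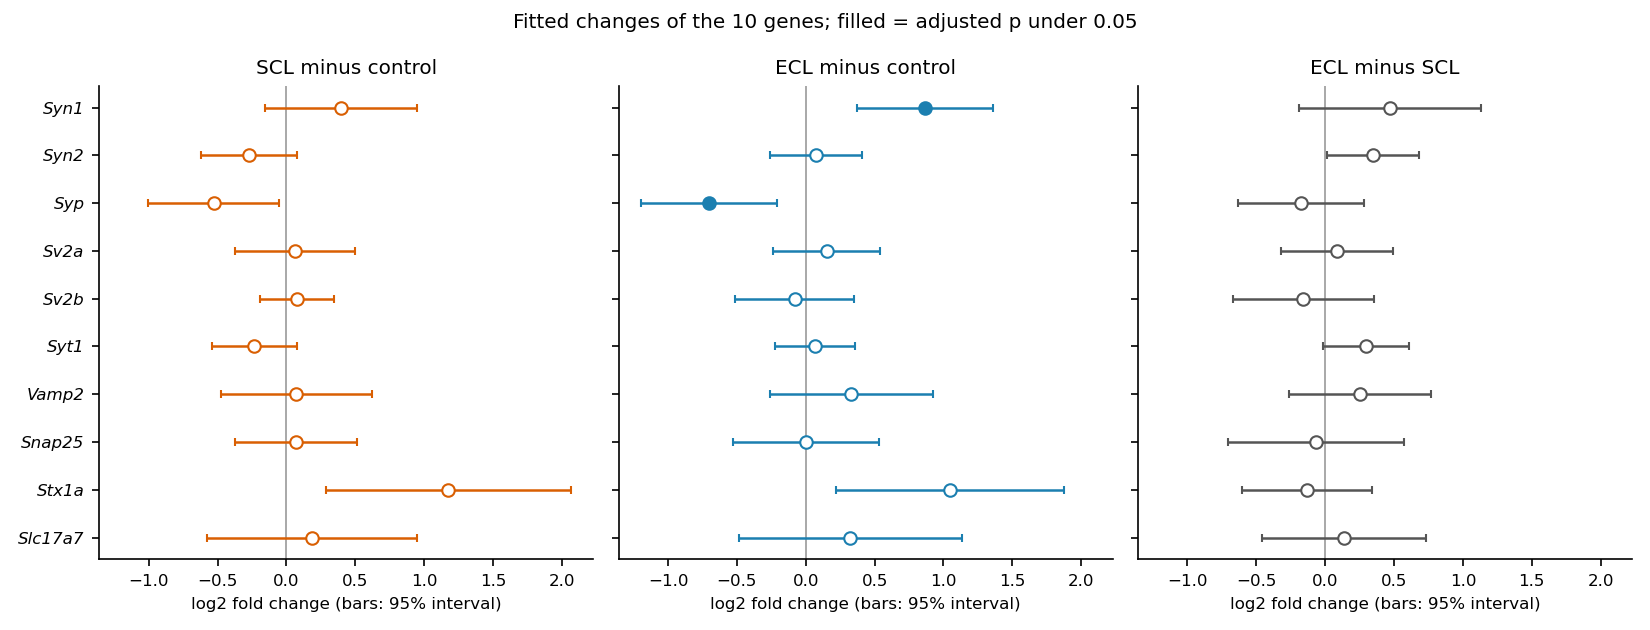
Fitted log2 fold changes (points) with 95% intervals (bars) of the 10 genes for SCL minus control, ECL minus control and ECL minus SCL; filled points have an edgeR adjusted p under 0.05. Syn1 at 0.86 and Syp at -0.70 after ECL are the only filled points, and the intervals of Stx1a, at 1.18 and 1.05, also lie above 0 after both lesions.

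Levels of some of these genes, but not of others, had their extremes in the libraries of most extreme base composition. For each library, the log2 deviation of 11492 genes from their mean was regressed on GC content and length. The GC slope per 10% GC was -0.45 in control replicate 4 and 0.35 in ECL replicate 3, and -0.20 to 0.15 in the other 11 libraries. Exons of Vamp2 and Slc17a7 hold 56.9% and 56.6% GC, and both genes were lowest in the former library and highest in the latter. Snap25 holds 41.5% GC, the least of the 10, and was lowest in ECL replicate 3. Other members went otherwise. Stx1a (58.2% GC) was lowest in control replicate 5 and highest in SCL replicate 2. Syn1 (57.7%) was lowest in control replicate 4 but highest in ECL replicate 4, where Sv2b (45.7%) was lowest. The part of base composition in these levels was not tested beyond the fit with an offset. The length slope separated the groups: it was 0.05 to 0.17 per doubling of length in the 5 controls and -0.11 to -0.02 in the 8 lesioned cultures. With an offset for both, Vamp2 changed by -0.01 after SCL and 0.19 after ECL, and Slc17a7 by 0.22 and 0.28, none of them called.

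**Figure D3:**
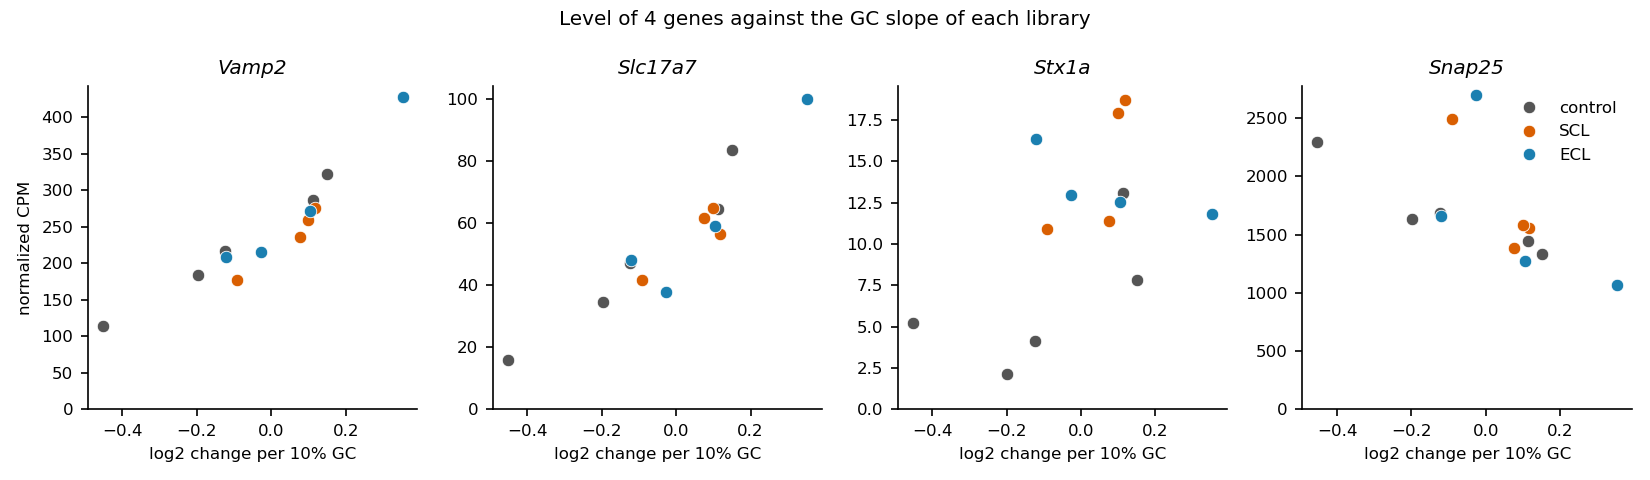
Level of Vamp2, Slc17a7, Stx1a and Snap25 in each library (y axis, normalized CPM, starting at 0) against that library's GC slope (x axis, log2 change per 10% GC), with control in grey, SCL in orange and ECL in blue. Vamp2 and Slc17a7 climb from control replicate 4 at -0.45 to ECL replicate 3 at 0.35 across all groups, Snap25 is lowest at the right end, and in Stx1a control replicate 2 is the only control among the lesioned points.

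Of 110 other genes of the vesicle cycle found in the files, 93 could be tested after SCL and 91 after ECL. After SCL, 10 were called higher and 10 lower (21.5% of those tested), and after ECL 14 higher and 13 lower (29.7%), close to the shares of all genes given above. Their median log2 fold change was 0.03 and 0.01. The direct comparison of the lesions called 0 of 96 with edgeR (3 at an unadjusted p under 0.05) and 0 with DESeq2.

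Among 22 other SNAREs, 3 were called higher after SCL and none lower (13.6%, beside 24.9% of all genes). After SCL, 13 of the 22 had an unadjusted edgeR p under 0.05, beside 4443 of all 11438 genes, and DESeq2 called 8, beside 3342 of all. Their median log2 fold change was 0.33 after SCL and 0.27 after ECL, beside 0.01 and -0.01 over all genes tested. After ECL, 5 were called higher and 2 lower (31.8%, beside 27.8%). Stx2, a syntaxin found in many tissues, rose from 5.38 to 7.90 CPM in controls to 9.84 to 15.4 CPM after SCL (log2 fold change 0.89, edgeR adjusted p = 0.0138) and 12.8 to 17.3 CPM after ECL (1.18, adjusted p = 0.00138). The call after SCL was lost without SCL replicate 3 (0.76, adjusted p = 0.0528). Counts of Stx2 were few, 80 to 150 per library in controls and 166 to 769 after the lesions. Like Stx1a, it therefore cleared the minimum mean of 150 through the lesioned libraries, where it is high. Vamp8, a SNARE of endosomes and of secretion outside neurons, rose from 45.2 to 65.1 CPM to 106.5 to 114.6 CPM after SCL (1.03, edgeR adjusted p = 0.00126) and 85.3 to 100.9 CPM after ECL (0.75, adjusted p = 0.00253), beside the rise of the microglia markers, whose part in it was not tested.

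Of the SNARE regulators, 3 of 25 tested rose and 4 fell after SCL (28.0% called, beside 24.9% of all genes), and 3 of 24 rose and 3 fell after ECL (25.0%, beside 27.8%). Snapin, which encodes a binding partner of SNAP-25, rose by 1.27 after SCL (edgeR adjusted p = 0.00692) and 1.32 after ECL (adjusted p = 0.0025). Napa, the gene of alpha-SNAP, which helps NSF to take spent SNARE complexes apart, rose by 1.56 after ECL (adjusted p = 0.000497) and 1.17 after SCL (adjusted p = 0.00736). Stxbp6, or amisyn, a SNARE-binding inhibitor of fusion, was lower by -0.72 after SCL (edgeR adjusted p = 0.00674) and -0.67 after ECL (adjusted p = 0.0129).

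Of 25 genes of vesicle retrieval, 6 were called lower and 3 higher after SCL (36.0%, beside 24.9% of all genes). After ECL, 5 were called in each direction (40.0%, beside 27.8%). Dnm1, the dynamin that pinches off recycled vesicles in neurons, was lower after SCL (-0.88, edgeR adjusted p = 0.00297) and after ECL (-0.74, adjusted p = 0.0137). Clathrin light chain Clta was lower after ECL (-0.86, adjusted p = 0.000788) and SCL (-0.52, adjusted p = 0.0151), while the heavy chain Cltc was higher (0.58 after SCL, adjusted p = 0.0116; 0.46 after ECL, adjusted p = 0.0287). Pacsin1, a membrane-bending partner of dynamin, was lower after ECL (-0.69, edgeR adjusted p = 0.00371) and SCL (-0.48, adjusted p = 0.0225). The Pacsin1 call after SCL was lost in 10 of 24 alternatives, with values down to -0.04 (adjusted p = 0.847), among them those without SCL replicate 3 (-0.47) or 4 (-0.41). The Clta call after SCL was lost in 5, with values down to -0.10, among them the fit without SCL replicate 3 (-0.47), and the Cltc call after ECL in 7, among them those without control replicate 2 (0.45) or 3 (0.42) or ECL replicate 1 (0.41), 2 (0.43) or 4 (0.47). Dnm1 after ECL missed the threshold without ECL replicate 1 (-0.62, edgeR adjusted p = 0.051).

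Of the other vesicle membrane genes, 1 of 9 tested was called after SCL (11.1%, beside 24.9% of all genes). After ECL, 1 of 8 was called (12.5%, beside 27.8%). Scamp2 rose after SCL (0.74, edgeR adjusted p = 0.0272) and Scamp5, a vesicle membrane protein of neurons, after ECL (1.00, adjusted p = 0.0119). Neither call marks a gene of 1 lesion only. Scamp5 changed by 0.63 after SCL (95% interval 0.09 to 1.17, edgeR adjusted p = 0.0795). Its SCL and control groups did not overlap, as for 23.6% of all genes tested. Scamp2 averaged 20.8 CPM in controls and 30.4 CPM after ECL, where it was not called. The Scamp2 call was lost without control replicate 5, SCL replicate 2 or SCL replicate 3 (0.69, 0.70 and 0.69, edgeR adjusted p = 0.0621, 0.0713 and 0.078). Of 9 other synaptotagmins tested, edgeR called 0 after SCL (3 at an unadjusted p under 0.05, and 0 with DESeq2) and 2 lower after ECL (22.2%, beside 27.8% of all genes). These were Syt16 (-0.42, edgeR adjusted p = 0.044) and Syt11 (-0.40, adjusted p = 0.0488), which passed in only 7 and 5 of 24 alternatives. Slc32a1, the vesicular transporter for GABA and glycine, stood at 10.6 to 19.5 CPM in controls, 4.53 to 10.4 CPM after SCL and 3.75 to 8.34 CPM after ECL, and neither lesioned group overlapped the controls. It was called lower after ECL (-1.12, edgeR adjusted p = 0.0149), which did not hold without ECL replicate 1 (-0.92, adjusted p = 0.0503) or 2 (adjusted p = 0.0522). After SCL its change was -0.79 (95% interval -1.41 to -0.17, edgeR adjusted p = 0.0605), and ECL against SCL gave -0.33 (edgeR adjusted p = 0.876). Of 3 transporters tested besides Slc17a7, Slc32a1 included, edgeR called 0 after SCL (2 at an unadjusted p under 0.05, 1 with DESeq2). After ECL it called 1 of the 3 (33.3%, beside 27.8% of all genes).

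**Figure D4:**
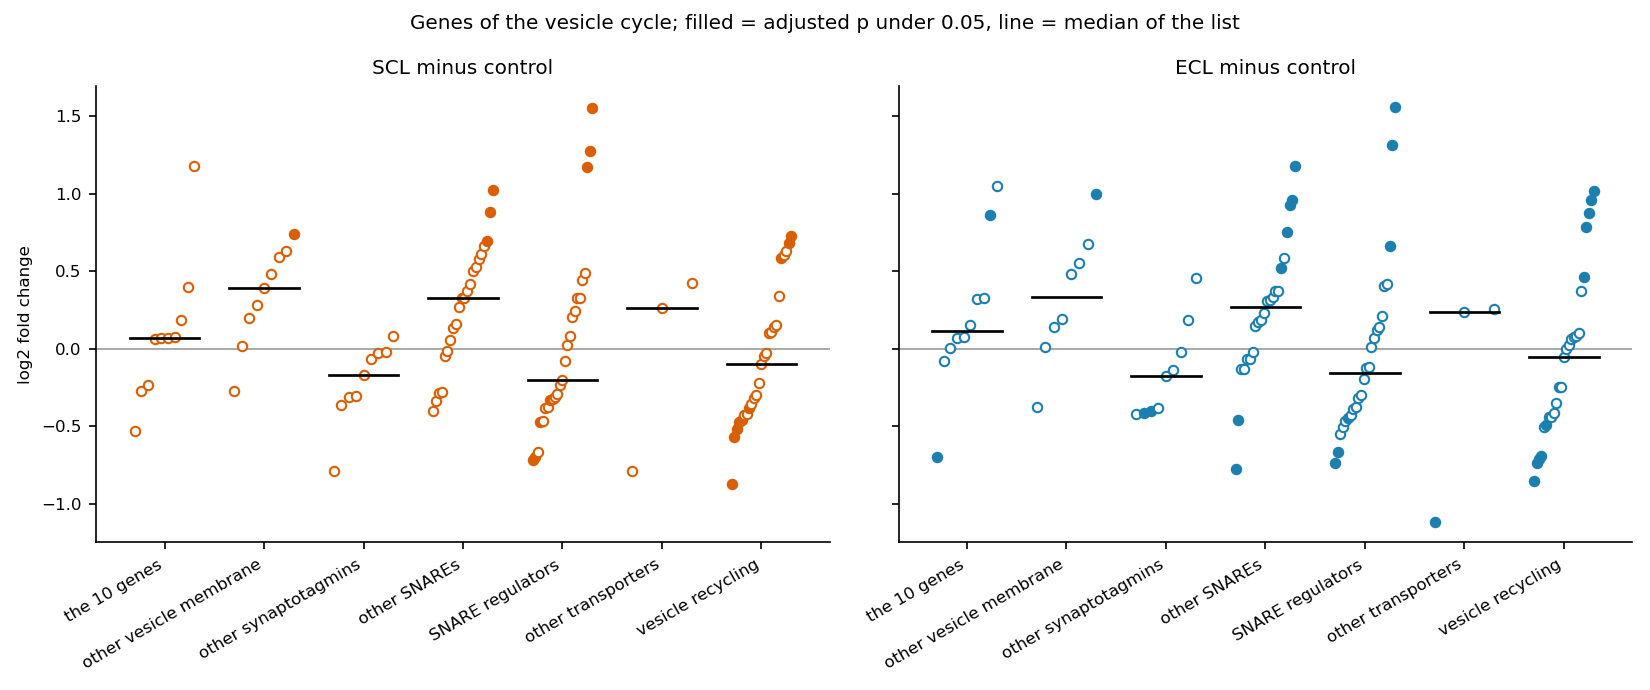
Log2 fold changes of the 10 genes and of the 6 lists of other vesicle cycle genes (x axis) after SCL and ECL; each point is a gene, filled where the edgeR adjusted p is under 0.05, and the line is the median of the list. Filled points lie on both sides of 0 after both lesions in the lists of SNARE regulators and vesicle recycling. After ECL they also do so in the 10 genes and the other SNAREs. Slc32a1 at -1.12 after ECL is the lowest point of all.

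Ratios of 2 genes within a library do not depend on the scaling between libraries. For 10 pairs of related genes, the mean log2 ratio of counts was compared between groups in 30 exact permutation tests (two-sided). None had an adjusted p under 0.05, and 4 had an unadjusted p under 0.05. With 5 against 4 libraries the smallest possible p is 0.00794, and with 4 against 4 it is 0.0286. Adjusted over all 30 tests, a single pair at that smallest p could not pass. The lack of calls therefore does not show that the ratios were unchanged.

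The ratio of Syn1 to Syp, the X-linked pair that moved in opposite directions, was -2.24, -2.78, -3.28, -2.20 and -1.999 in controls. It was -1.41, -0.57, -1.43 and -0.50 after ECL, where every library lay above every control. The difference was 1.52 on the log2 scale (exact permutation p = 0.00794, adjusted p = 0.159). As both genes were called in these libraries, this ratio is not independent of their calls. After SCL the ratio was -1.43, -2.05, -0.67 and -2.53, overlapped the controls and differed by 0.83 (exact permutation p = 0.103, adjusted p = 0.33).

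Slc17a7 against Slc32a1, the glutamate against the GABA transporter, gave 2.06, 1.72, 2.43, 0.54 and 1.70 in controls. After SCL the ratio was 3.196, 2.45, 3.18 and 2.71, and after ECL 3.33, 3.37, 3.58 and 2.84. All 8 lesioned libraries lay above all 5 controls, if only just in SCL replicate 2. Markers of inhibitory neurons went both ways. Of 9 tested, 2 were called lower and 1 higher after SCL (33.3%, beside 24.9% of all genes). After ECL, 3 were called lower and 1 higher (44.4%, beside 27.8%). Their median log2 fold change was -0.06 after SCL and -0.12 after ECL. Pvalb (0.04 and 0.15), Sst (0.23 and 0.31), Vip (0.03 and -0.04) and Lhx6 (-0.06 and -0.26) were not called after either lesion. Dlx6os1 changed by -0.32 after SCL, not called, and by -0.61 after ECL (edgeR adjusted p = 0.038). Dlx1, a transcription factor of these cells, changed by -1.16 after SCL and -1.27 after ECL (edgeR adjusted p = 0.00401 and 0.000762), and Gad1, which makes GABA, by -0.41 and -0.62 (adjusted p = 0.0353 and 0.0171). Gad2 changed by -0.09 and -0.12 and was not called, while the neuropeptide gene Npy was higher by 1.00 and 0.88 (adjusted p = 0.00708 and 0.0482). The summed level of the 9 was 1576 to 2651 CPM in controls, 2345 to 3018 after SCL and 1773 to 3483 after ECL, and their part in the ratio was not tested. All 9 were set beside the ratio after their values were seen. The differences were 1.19 after SCL and 1.59 after ECL (exact permutation p = 0.0159 for each, adjusted p = 0.159 for each). Without control replicate 4, the lowest, they were 0.90 and 1.3 (exact permutation p = 0.0286 for each, the smallest possible).

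Snap25 against its paralog Snap23 stood at 6.07, 6.18, 5.94, 5.31 and 6.18 in controls, 5.43, 5.15, 5.08 and 5.23 after SCL and 5.78, 5.29, 5.45 and 5.17 after ECL. The ratio was lower by 0.71 after SCL (exact permutation p = 0.0238, adjusted p = 0.179) and by 0.52 after ECL (p = 0.0556, adjusted p = 0.317). Control replicate 4 overlapped the lesioned range in both. For the other pairs shown (Syn1/Syn2, Sv2a/Sv2b, Vamp2/Vamp1, Slc17a7/Slc17a6, Syp/Synpr and Syt1/Syt2), exact permutation p-values lay between 0.0635 and 1.0 and all groups overlapped.

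**Figure D5:**
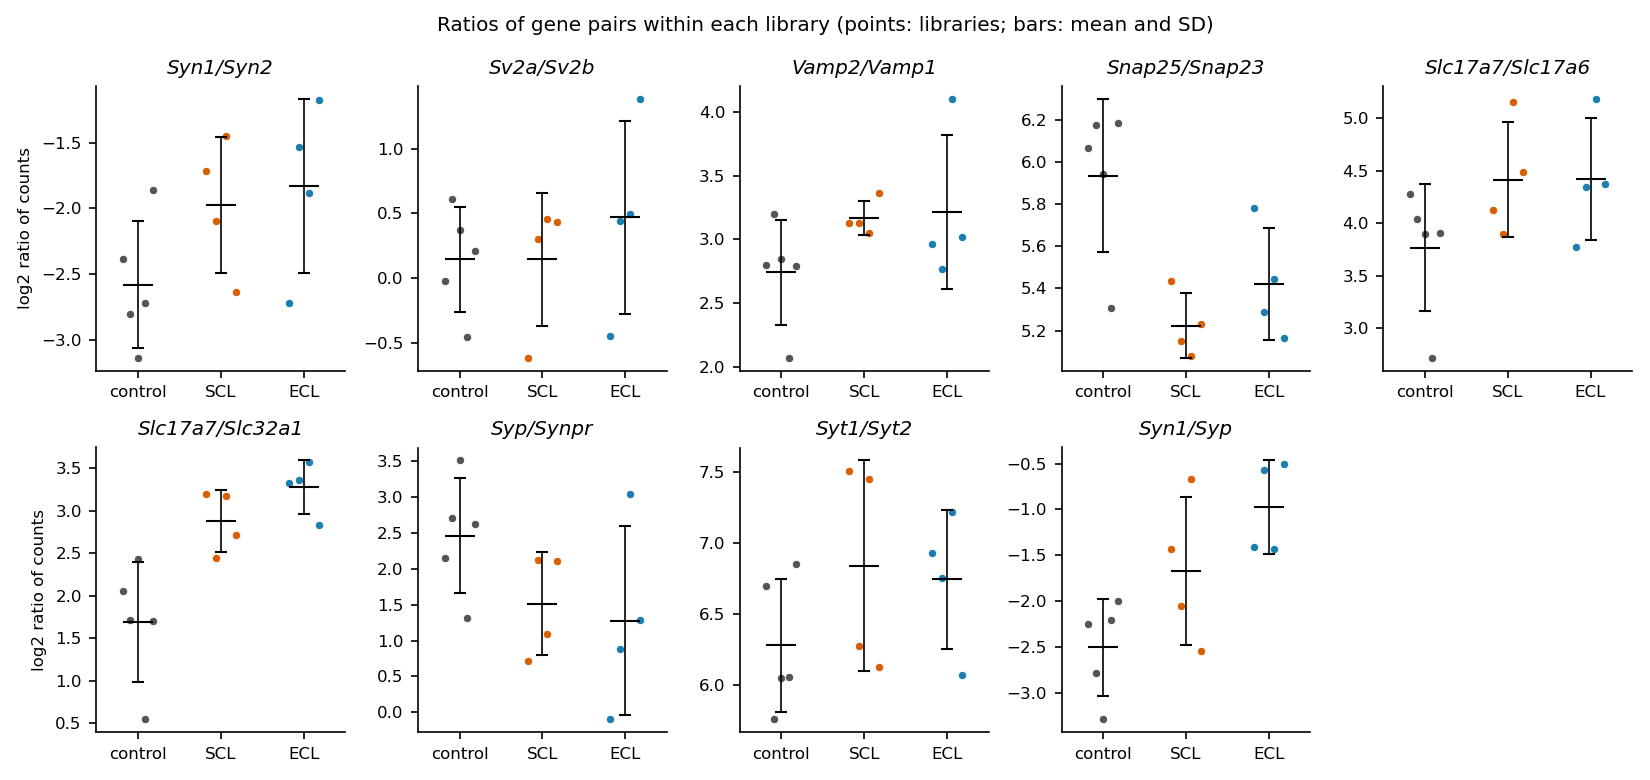
Log2 ratio of counts for 9 gene pairs within each library (points), with mean and SD (bars), in control, SCL and ECL; the y axes do not start at 0. The groups separate for Syn1/Syp after ECL and for Slc17a7/Slc32a1 after both lesions, and overlap in all other panels.

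For each of these genes, the gene with the most similar deviations from the group means over the 13 libraries was sought among 11649 genes. Reported here for 9 of them, these were Atp1b2 for Syn1 (Pearson's r 0.972), Cplx2 for Syn2 (0.924), Atp13a1 for Syp (0.963), Grp for Sv2b (0.88), Cox4i2 for Syt1 (0.956), Gnb2 for Vamp2 (0.99), Psmd14 for Snap25 (0.987), 0610009L18Rik for Stx1a (0.896) and C1qtnf4 for Slc17a7 (0.989). Only Cplx2, which encodes complexin 2, a clamp and helper of SNARE fusion, belongs to the vesicle cycle lists. Each r is the largest of a search over 11649 genes with only 13 libraries. A high value was therefore likely in advance and does not by itself show a link. The points share library, depth and base composition. Gnb2 holds 60.1% GC beside the 56.9% of Vamp2, and Psmd14 40.8% beside the 41.5% of Snap25. Other pairs lay further apart: Cox4i2 holds 56.9% beside the 44.1% of Syt1, Grp 55.5% beside the 45.7% of Sv2b, and C1qtnf4 70.7% beside the 56.6% of Slc17a7. The part of base composition in these pairs was not tested.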

How the data were processed

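RNA of 13 CA1 isolates was amplified with a low-input kit and sequenced in paired ends. Per the labels and the study's methods, the authors trimmed reads (cutadapt 3.5), mapped them to mm10 (STAR 2.7.8a) and counted them per gene (featureCounts 2.0.1) on GENCODE M25 without strand. The deposited values are raw counts. Between 63.0% and 74.3% of the counts from 1 to 20 were even, so mates were apparently counted separately, and counts divided by 2 were tried. Reads carry no molecular identifiers.

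Counts of each pair of groups were tested with edgeR 4.0.16 (R 4.3.3, glmQLFit and glmQLFTest, two-sided, TMM over genes tested) for genes whose mean normalized count reached 150, with Benjamini-Hochberg adjustment at 0.05. This replaces DESeq2, which the study used and which is an alternative here (version 1.42.0). CPM use TMM factors over all 13 libraries. Lengths, GC content and coordinates come from GENCODE M21 on GRCm38, which matched 53292 of 55291 symbols. Ratios had 0.5 added to each count. Scripts were tested on simulated data. Each library is a separate culture, and cultures were not tied to animals in the labels, so p-values measure the spread between cultures. Column headings gave the sex; no source used here names a batch.

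The 10 genes and all lists were chosen with earlier results of these data known. Named beside the 10 genes are the pair genes, the 2 called genes of smallest adjusted p per list and lesion, the nearest gene of each, Timp genes within synapsin genes, and marker genes. Timp3, which lies within another synapsin gene, was at 14.8 CPM in controls, 16.2 CPM after SCL and 17.9 CPM after ECL, and was not called. Of dentate granule cell markers, 0 of 3 tested were called after either lesion (0 at an unadjusted p under 0.05, 0 with DESeq2). After SCL, calls were 1 higher and 1 lower of 7 CA1 markers, 1 lower of 4 CA3 markers, 4 higher of 10 astrocyte markers, 2 higher of 11 oligodendrocyte markers and 1 lower of 4 vascular markers, beside 24.9% of all genes. After ECL they were 0 of 7 (2 at an unadjusted p under 0.05, 0 with DESeq2), 1 lower of 4, 3 higher and 1 lower of 10, 2 higher of 11 and 1 lower of 3, beside 27.8%. Alternatives were other scalings, filters and tools, blocks, a sex term, an offset for length and GC content (mgcv 1.9.3), a threshold of 0.01 and leaving out each library. Amino acid sequences are not shown. The values of 1 gene pair and of 1 nearest gene are not reported here.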

Additional observations from a re-analysis of the deposited data

Results flagged for a closer look

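The level of Sv2a in ECL replicate 1 stood apart from the rest of its group: 131.2 CPM beside 178.0 to 185.1 CPM in the other 3 libraries. On the log2 scale the gap was 0.886 of the group's range, above Dixon's critical value of 0.829 for 4 samples. The level in ECL replicate 1 lay within the control range of 103.4 to 188.1 CPM. Chance flags about 1 in 20 groups, and 30 groups were looked at.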

How the results depend on the processing

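Of 1325 single-gene and ratio values recomputed under alternatives, 1161 kept their direction and their side of the threshold, 99 were no longer past it, 29 newly passed it and 36 reversed. After SCL, where none of the 10 genes passed, 1 did with DESeq2, TMM over all symbols, filterByExpr, all 13 libraries in 1 fit, the replicate block, the heading number as a block, or the length and GC offset, 2 did with no filter on low counts and 4 when scaled to general neuron markers. Leaving out 1 library gave 0 to 1: Stx1a without control replicate 2 and Syp without control replicate 4. After ECL, where 2 passed, 0 did at a threshold of 0.01, 1 with upper-quartile factors, library totals, the length and GC offset or a sex term, 4 with no filter and 6 when scaled to neuron markers. Leaving out 1 library gave 0 to 2, and 0 without ECL replicate 4. The cause was not tested. Of the other vesicle cycle genes, 20 after SCL and 27 after ECL, 5 and 12 passed at 0.01, 10 and 17 with the heading number as a block, 52 and 41 when scaled to neuron markers, and 7 to 24 and 17 to 29 without 1 library. The lowest counts came without SCL replicate 3 and without ECL replicate 1. After SCL, 11 passed without control replicate 5 or SCL replicate 2.

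Scaling to the neuron markers moved the all-gene median to 0.44 (SCL) and 0.39 (ECL) and the median of the 10 genes to 0.51 in both. TMM over all symbols moved the all-gene median to 0.21 (SCL) and 0.18 (ECL). Higher calls then made up 80.8% of calls in place of 52.8% (SCL) and 77.8% in place of 54.8% (ECL). With neuron scaling that share was 94.7% and 91.4%, with DESeq2 63.3% and 61.7%, and with no filter 58.8% and 43.0%.

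None of the log2 fold changes that reversed had passed the test. After SCL these were Syn2 (0.16) and Syt1 (0.21) with neuron scaling, Sv2a (-0.012) and Vamp2 (-0.013) with the length and GC offset, and, without 1 library, Sv2a (-0.055 to 0.21), Sv2b (-0.011 to 0.15), Vamp2 (-0.10 to 0.24), Snap25 (-0.15 to 0.20) and Slc17a7 (-0.045 to 0.47). After ECL they were Sv2b with TMM over all symbols (0.13), no filter (0.13), neuron scaling (0.33), the offset (0.084) and a sex term (0.012), and Snap25 with all 13 libraries (-0.0061), the replicate block (-0.068) and the heading number (-0.064). Without 1 library the ranges were -0.28 to 0.12 for Sv2b, -0.31 to 0.17 for Snap25 and -0.015 to 0.60 for Slc17a7. Between ECL (3 males, 1 female) and SCL (1 male, 3 females), a sex term reversed Sv2a (-0.061), Sv2b (0.064), Snap25 (0.23) and Slc17a7 (-0.18). There the ranges without 1 library were -0.056 to 0.20 for Sv2a, -0.36 to 0.040 for Sv2b, -0.024 to 0.38 for Vamp2, -0.39 to 0.16 for Snap25 and -0.21 to 0.31 for Slc17a7.

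The groups share replicate numbers, but nothing says that a number marks a shared animal or day, and correlations of same-numbered libraries ran from -0.16 to 0.54. With the replicate block the 10 genes gave 1 call after SCL (Stx1a, 1.05), 3 after ECL (Syn1, Syp and Stx1a, 0.95 for the last) and 0 between the lesions. The heading number was added after seeing the data. Depth limits Stx1a most, with 32 to 1090 counts per library, and it could not be tested with counts divided by 2.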
